A study of Mus musculus with 6 samples.

Results

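The genes described here encode the parts of mitochondrial respiratory complexes II, III, IV and V that are made from nuclear DNA, together with cytochrome c and the assembly factors whose names share the same stems. They were taken from the deposited transcript table as every gene named Sdh, Uqcr, Cox, Coa followed by a digit, or Atp5, plus Cyc1 and Cycs, with transcripts summed per gene identifier. This found 70 of 21801 genes, under 69 symbols, and 149 of 59192 transcripts. Values are FPKM, fragments per kilobase of transcript and per M (1000000) fragments of the library. Testing was limited to genes averaging 1 FPKM or more across libraries, which 61 of the 70 members and 9925 genes in all did. The 70 are 4 subunits and 4 assembly factors of complex II, 9 subunits of complex III, cytochrome c, 19 complex IV subunit genes with their tissue forms, 15 complex IV assembly factors and 18 ATP synthase entries. Cox5b-ps, named as a pseudogene of Cox5b, was counted with the complex IV subunits, so the label covers 1 entry that may not encode a subunit.

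The cells were B16F10-OVA, a mouse melanoma line carrying an ovalbumin gene, which both groups share. In the treated group, 3 libraries came from cells kept in 50 µM Ac4ManNAz over 5 days, and in the untreated group 3 libraries came from the same line without it. A passage on day 3 is listed for both groups. Ac4ManNAz is an acetylated azido mannosamine that cells convert into azide-tagged sialic acids, and the comparison addresses how the transcriptome differs with this labelling. Nothing in the labels tells if the libraries stem from independent cultures, and p-values then reflect spread that may be technical.

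Respiratory complexes sit in the inner mitochondrial membrane. Complex II oxidises succinate and passes electrons to ubiquinone, complex III passes them on to cytochrome c, complex IV reduces oxygen with them, and complex V, the ATP synthase, uses the proton gradient that complexes III and IV help to build. Complexes III, IV and V join nuclear-encoded subunits with a few made inside the mitochondrion, whereas complex II is wholly nuclear-encoded, and complex IV needs many helpers that insert its heme and copper centres.

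The libraries listed 13912 to 18974 genes above 0 FPKM. The steps between low values imply 32.0 to 35.9 M fragments in treated and 29.9 to 45.2 M fragments in untreated libraries. All 7 melanocyte genes checked were present at 55.3 to 4760.4 FPKM in every library. Markers of leukocytes, keratinocytes and muscle stayed at or under 0.288 FPKM, Pecam1 of endothelium reached 1.40 FPKM and Col1a2 of fibroblasts 4.38 FPKM. Correlations of log2 values across all tested genes were 0.960 to 0.975 between groups and 0.959 to 0.974 within them.

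With Ac4ManNAz, the respiratory genes stood close to their untreated levels. None of the 61 tested members passed limma's test with Benjamini-Hochberg adjustment over all 9925 genes. It called 0 genes of the whole table (0.0%), with every adjusted p at 0.9998 or more. Coa7 was the 1 member at an unadjusted p under 0.05, or 1.64% of the members, where 177 genes or 1.78% of all tested genes were. The members together summed to 8652 ± 672 FPKM in treated cells and 8824 ± 436 FPKM in untreated cells, where ± is the SD over 3 libraries here and wherever groups are averaged. Their median log2 difference, treated minus untreated on the log2(FPKM + 1) scale, was -0.02, beside -0.0014 for all tested genes. 28 members averaged higher in treated cells and 33 lower, and the higher share was 45.9%, beside 49.6% of all tested genes. The balance turned with scaling: with libraries set to the same summed FPKM 40 averaged higher and the median was 0.03. In 56 members, 91.8%, limma's 95% interval stayed inside a 2-fold difference either way, as it did in 91.0% of all tested genes. The added 1 FPKM makes differences of low genes look smaller than they are in FPKM.

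**Figure D1:**
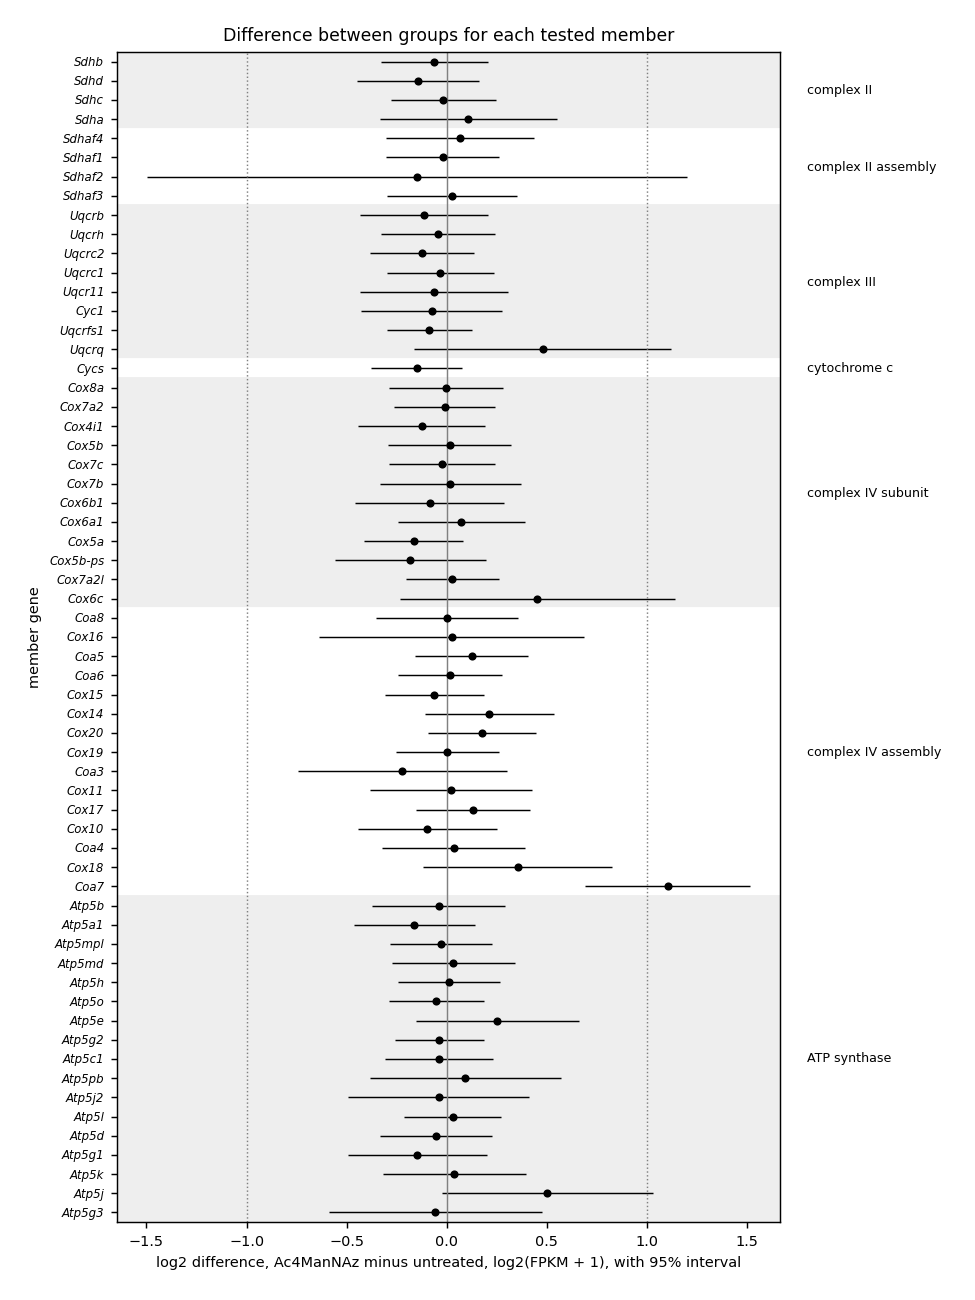
Log2 difference, Ac4ManNAz minus untreated, on the log2(FPKM + 1) scale for the 61 tested members by role, with limma's 95% interval as bars and dotted lines at 2-fold. Coa7, at 1.10, lies apart from the other members, and the intervals of 56 members stay between the dotted lines.

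The groups did not overlap for 5 members, 8.20%, beside 5.8% of all tested genes. All treated values were higher in 4 of them, 6.56% of members beside 2.1% of all tested genes, and all were lower in 1, 1.64% beside 3.71%. None of the 5 passed the test after adjustment.

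Coa7, a mitochondrial factor with a part in building cytochrome c oxidase, had 4.01, 3.25 and 2.56 FPKM in treated cells, against 0.946, 0.853 and 1.11 FPKM in untreated cells. The lowest treated library lay above the highest untreated one by about as much as the treated libraries spread among themselves. The log2 difference was 1.10 ± 0.17 (SE; 95% interval 0.69 to 1.51), with an unadjusted p of 0.000377 and a limma adjusted p of 0.9998. In mean FPKM the treated level was 3.37 times the untreated one. The entry (ENSMUSG00000048351, chromosome 4, 108185337 to 108198741 as deposited, build not given in the sources used here) has 1 transcript, Coa7-202, and rested on 325 to 534 implied fragments in treated and 124 to 143 in untreated libraries. Coa7 ranked 3 among the 9925 genes by unadjusted p, and it had the lowest mean level of the tested members. Its untreated mean, 0.971 FPKM, was under the 1 FPKM limit for testing. It entered the test, and so has a p and a rank, only through the group where it was higher.

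Atp5j, coupling factor 6 in the stalk of ATP synthase, had 68.1, 43.0 and 36.8 FPKM in treated cells, against 36.0, 34.6 and 29.7 FPKM in untreated cells. The separation was narrow, between treated replicate 3 and untreated replicate 1, and treated replicate 1 was the high library. The log2 difference was 0.50, with a 95% interval of -0.02 to 1.03. Its deposited span overlaps that of Gabpa by 701 bases. Gabpa, which encodes the DNA-binding part of a regulator of respiratory genes, had 16.4, 13.9 and 16.1 FPKM in treated cells, against 16.6, 15.4 and 15.7 FPKM in untreated cells, and these overlapped.

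Cox17, a copper chaperone of complex IV, had 6.64, 6.52 and 6.22 FPKM in treated cells, against 5.92, 6.21 and 5.36 FPKM in untreated cells. Cox20, which escorts the newly made COX2 subunit, had 10.8, 9.77 and 10.4 FPKM in treated cells, against 9.73, 8.88 and 8.49 FPKM in untreated cells. Both genes were separated by less than the range within either group. Both values are also uncertain where reads could be split: Cox17 matched Gm21987 exactly over 257 bases and overlaps its deposited span by 5724 bases, and Cox20 matched Cox20b at 97.2% over 355 bases. Gm21987 was listed at 0 FPKM in all 6 libraries. The 95% intervals of the log2 differences, -0.15 to 0.41 for Cox17 and -0.09 to 0.44 for Cox20, included 0.

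Cycs, the cytochrome c gene, was the member with all treated values lower, at 149, 139 and 142 FPKM in treated cells, against 149, 171 and 158 FPKM in untreated cells. The highest treated library, 148.7 FPKM, and the lowest untreated one, 149.1 FPKM, nearly met. The log2 difference was -0.15, with a 95% interval of -0.38 to 0.08. Cycs is among 19 of the 70 entries with a GENCODE M21 transcript of another gene at 95% identity or more over at least 200 bases, whose values are uncertain in the same way. The others are Atp5g1, Atp5g2, Atp5h, Atp5k, Atp5l, both Atp5o entries, Atp5pb, Cox16, Cox17, Cox20, Cox5b, Cox5b-ps, Cox6c, Cox7a2l, Cox7b, Cox7c and Uqcrb. Gm10053, a copy of Cycs listed in the same table, matched it at 99.9% identity over 946 bases and had 100.1, 84.8 and 94.8 FPKM in treated cells, against 105, 119 and 94.2 FPKM in untreated cells, which overlapped.

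**Figure D2:**
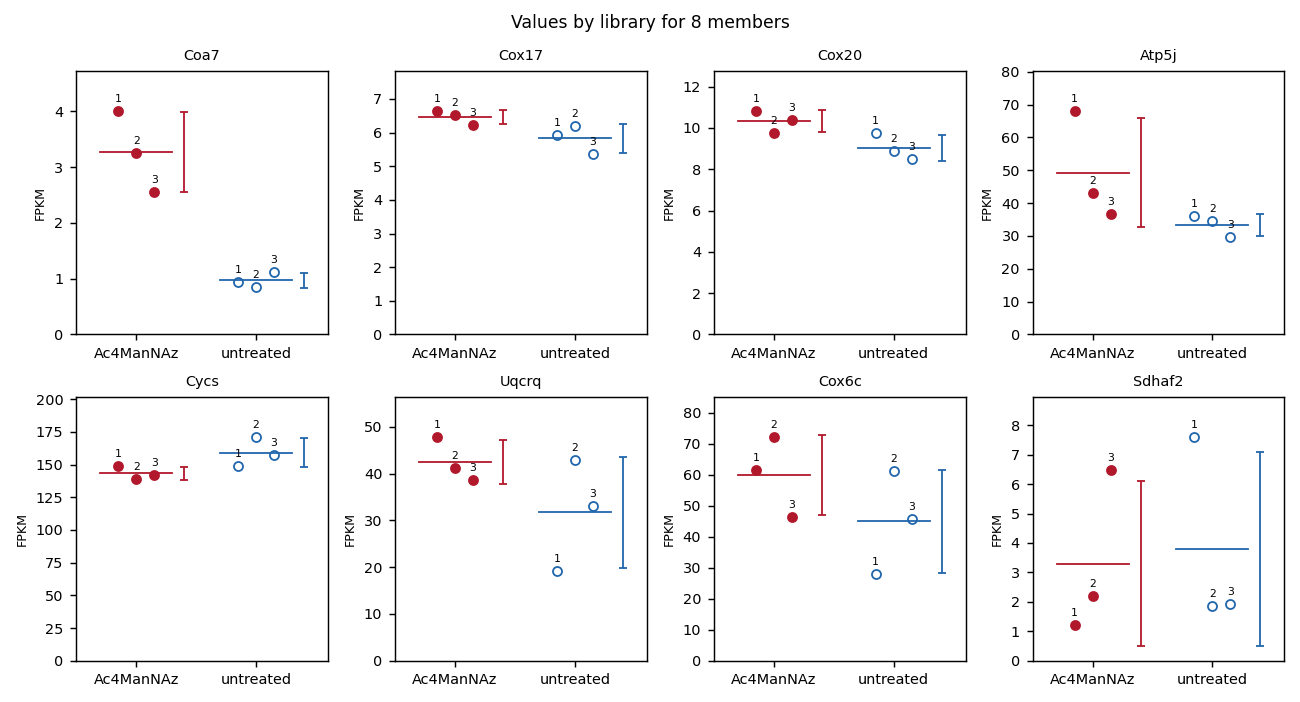
FPKM by library for 8 members, with the replicate number beside each point, a line at the group mean and an SD bar (3 libraries in each group). Coa7 shows treated points at 2.56 FPKM or more and untreated points at 1.11 FPKM or less, Cox17, Cox20, Atp5j and Cycs are barely separated, and Uqcrq, Cox6c and Sdhaf2 overlap.

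Promoter sequence is a feature that the choice of members did not use. RefSeq windows from 250 bases before to 50 bases after each annotated start (GRCm38.p6) were matched by symbol for 53 of the 69 symbols, 57 windows in all. The letters CCGGAAG, the core bound by ETS factors such as GABPA, were searched on both strands and occurred in 24 member windows, or 42.1%. They occurred in 19.6% of windows of genes averaging 1 FPKM or more and in 8.86% of all 32851 windows. The NRF1 palindrome, GCGCA followed by TGCGC, occurred in 7.02% of member windows, 2.26% of windows of expressed genes and 0.971% of all windows. With the T left free, GCGCA then N then GCGC, the shares were 21.1%, 11.1% and 4.60%, and this search includes every palindrome match. The YY1 letters, AANATGG followed by CGGC, gave 5.26%, 2.67% and 0.986%, and TATAAA gave 10.5%, 6.67% and 13.6%. The exact NRF1 palindrome was in 4 member windows and the YY1 letters in 3. These member shares include members under 1 FPKM. In the 52 windows of tested members, TATAAA was in 7.69%, the ETS letters in 46.15% and the NRF1 letters with the free base in 23.1%. A match describes letters in a window, not binding.

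**Figure D3:**
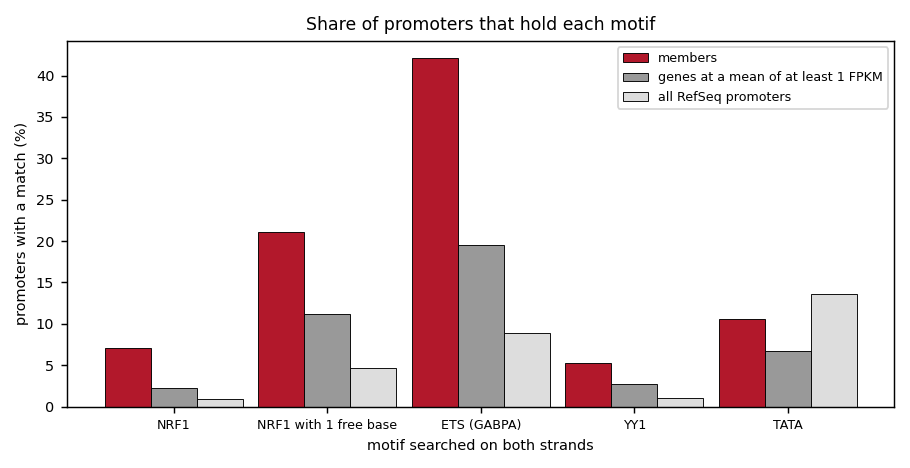
Share of RefSeq promoter windows that hold each motif on either strand, for member genes, genes averaging 1 FPKM or more and all windows. The ETS letters stand at 42.1%, 19.6% and 8.86%.

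RefSeq gives Atp5j a pair of windows, of which the one at chr16:84835576-84835875 holds none of the ETS or NRF1 letters and the one at chr16:84834927-84835226 holds the ETS letters. Windows of Coa7, Atp5j (the one with a match), Cox20 and Cycs are printed because these genes were separated between groups. Cox17, also separated, is not printed. The window of Cox6a1 is printed as an example that holds both NRF1 and ETS letters. Atp5h, Atp5k, Sdhaf3 and Sdhd also matched the ETS letters and the NRF1 letters with the free base. Each printed window reads 5′ to 3′ on the gene's strand, and capitals mark matches to the ETS letters or to the NRF1 letters with the free base. The GRCm38.p6 windows lie outside the deposited spans of these genes, so the window coordinates and the deposited coordinates cannot be set side by side.
Coa7, chr4:108327902-108328201, + strand: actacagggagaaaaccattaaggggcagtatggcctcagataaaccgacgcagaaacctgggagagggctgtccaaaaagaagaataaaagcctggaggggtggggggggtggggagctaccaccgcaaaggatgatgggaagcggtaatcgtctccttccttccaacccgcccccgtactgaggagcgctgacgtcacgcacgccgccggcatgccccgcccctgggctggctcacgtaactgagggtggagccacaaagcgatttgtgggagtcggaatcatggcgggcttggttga
Atp5j, chr16:84834927-84835226, - strand: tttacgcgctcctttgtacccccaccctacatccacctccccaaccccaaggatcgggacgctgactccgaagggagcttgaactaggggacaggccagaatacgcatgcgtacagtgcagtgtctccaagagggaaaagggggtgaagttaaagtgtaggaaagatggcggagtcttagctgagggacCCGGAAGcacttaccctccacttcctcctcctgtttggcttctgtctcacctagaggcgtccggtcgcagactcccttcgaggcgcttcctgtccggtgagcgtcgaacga
Cox20, chr1:178318903-178319202, + strand: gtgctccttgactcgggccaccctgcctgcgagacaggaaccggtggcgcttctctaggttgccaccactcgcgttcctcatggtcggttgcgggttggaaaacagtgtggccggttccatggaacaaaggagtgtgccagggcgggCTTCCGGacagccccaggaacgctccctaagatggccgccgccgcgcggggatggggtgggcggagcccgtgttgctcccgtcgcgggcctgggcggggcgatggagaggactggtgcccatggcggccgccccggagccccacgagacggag
Cycs, chr6:50566520-50566819, - strand: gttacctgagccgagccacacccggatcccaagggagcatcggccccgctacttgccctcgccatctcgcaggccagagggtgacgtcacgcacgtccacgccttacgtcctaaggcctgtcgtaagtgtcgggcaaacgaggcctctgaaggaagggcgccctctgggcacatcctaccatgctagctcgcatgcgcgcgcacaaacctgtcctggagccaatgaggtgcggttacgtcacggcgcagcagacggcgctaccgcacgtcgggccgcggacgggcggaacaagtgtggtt
Cox6a1, chr5:115348909-115349208, - strand: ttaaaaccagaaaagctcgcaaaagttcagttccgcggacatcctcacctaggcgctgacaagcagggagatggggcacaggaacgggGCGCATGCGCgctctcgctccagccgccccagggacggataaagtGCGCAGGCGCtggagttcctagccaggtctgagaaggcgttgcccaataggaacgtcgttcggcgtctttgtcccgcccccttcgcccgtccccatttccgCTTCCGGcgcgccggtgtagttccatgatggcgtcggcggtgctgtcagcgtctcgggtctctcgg
The Coa7 and Cycs windows hold no capitals. The ETS letters begin 61 bases before the start in the printed Atp5j window and 103 bases before it in the Cox20 window, where they read as the reverse complement. The Cox6a1 window has NRF1 letters from 162 and 117 bases before the start and ETS letters from 16 bases before it.

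Complex II subunit genes differed widely in level within every library. Sdhb, the iron-sulfur subunit, had 401, 336 and 352 FPKM in treated cells, against 387, 393 and 356 FPKM in untreated cells. Sdha, the flavoprotein that oxidises succinate, had 26.0, 30.5 and 27.0 FPKM in treated cells, against 27.8, 31.7 and 19.2 FPKM in untreated cells. Sdhd and Sdhc, which anchor the complex in the membrane, lay between them: Sdhd averaged 179.9 ± 26.9 FPKM in treated cells and 198 ± 11.4 FPKM in untreated cells, and Sdhc 43.0 ± 2.46 FPKM in treated cells and 43.7 ± 4.47 FPKM in untreated cells. Each subunit overlapped between groups, and the log2 differences ran from -0.14 for Sdhd to 0.11 for Sdha.

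Complex II assembly factors were lower, at means of 3.11 to 24.6 FPKM over the 6 libraries. Sdhaf1, which helps place iron-sulfur clusters, averaged 5.77 ± 0.422 FPKM in treated cells and 5.86 ± 0.130 FPKM in untreated cells. Sdhaf3, with a like role, averaged 3.15 ± 0.290 FPKM in treated cells and 3.08 ± 0.256 FPKM in untreated cells. Sdhaf4, which assists Sdha and Sdhb in joining, averaged 25.1 ± 2.01 FPKM in treated cells and 24.1 ± 4.88 FPKM in untreated cells, and all 3 overlapped between groups.

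Sdhaf2, which attaches FAD to Sdha, was the least steady of the 61 members, its highest library being 6.29 times its lowest. It had 1.21, 2.19 and 6.47 FPKM in treated cells, against 7.59, 1.85 and 1.93 FPKM in untreated cells, so 1 library of each group was high. The transcript Sdhaf2-201 carried the high values, at 0.454, 0.517 and 5.98 FPKM in treated cells, against 6.96, 0.446 and 0.683 FPKM in untreated cells. The 95% interval of the gene's difference, -1.50 to 1.20, was the widest among the members.

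Among complex III genes, 7 of the 8 tested averaged lower in treated cells and 1 higher, and 0 passed. The higher ones numbered 3 with the same summed FPKM or quantile normalization and 5 without untreated replicate 2. Cyc1, the cytochrome c1 subunit, averaged 87.5 ± 3.87 FPKM in treated cells and 93.4 ± 18.1 FPKM in untreated cells. Uqcrfs1, the Rieske iron-sulfur protein, averaged 87.1 ± 4.08 FPKM in treated cells and 92.5 ± 3.51 FPKM in untreated cells. Both overlapped between groups. The core subunits were close to each other, Uqcrc1 averaging 122 ± 13.6 FPKM in treated cells and 124 ± 7.07 FPKM in untreated cells and Uqcrc2 124 ± 14.6 FPKM in treated cells and 135 ± 3.06 FPKM in untreated cells.

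The small subunits Uqcrb and Uqcrh were the most abundant of the complex. Uqcrb, near the ubiquinone site, had 207, 189 and 172 FPKM in treated cells, against 209, 232 and 176 FPKM in untreated cells. Uqcrh, the hinge protein by cytochrome c1, had 211, 186 and 171 FPKM in treated cells, against 185, 214 and 185 FPKM in untreated cells. Uqcr11 averaged 118 ± 18.5 FPKM in treated cells and 123 ± 17.8 FPKM in untreated cells. The 7 genes that averaged lower had log2 differences of -0.12 to -0.03, with 0 inside every interval.

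Uqcrq, a small subunit, was the complex III gene that averaged higher, with 47.8, 41.3 and 38.6 FPKM in treated cells, against 19.1, 42.9 and 33.0 FPKM in untreated cells. Untreated replicate 1 was low, and untreated replicate 2 stood inside the treated range. The difference of 0.48 had a 95% interval of -0.16 to 1.12. Uqcr10, a further small subunit, was listed between 0.0147 and 0.0269 FPKM in all 6 libraries and was not tested. The other complex III genes were listed at 19.1 FPKM or more, and Gapdh, which nearly every cell uses, was also listed low, at 0.691, 10.4 and 0.738 FPKM in treated cells, against 6.20, 0.135 and 0.816 FPKM in untreated cells, so the Uqcr10 value is given only as listed. No near-identical copy of Uqcr10 was found among GENCODE M21 transcripts.

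The 12 tested complex IV subunit entries comprised 5 that averaged higher and 7 lower (8 and 4 with the same summed FPKM), 0 passed and all overlapped. Cox8a, the most abundant, had 422, 404 and 343 FPKM in treated cells, against 399, 407 and 363 FPKM in untreated cells. Cox7a2 had 396, 381 and 350.3 FPKM in treated cells, against 374, 403 and 358 FPKM in untreated cells. Their group means nearly coincided. Cox4i1, a subunit known to bind adenine nucleotides, had 335, 336 and 304 FPKM in treated cells, against 306, 354 and 411 FPKM in untreated cells, and the wider spread was in the untreated group. Cox5a had 118, 110.3 and 108 FPKM in treated cells, against 137, 127 and 114 FPKM in untreated cells, a difference of -0.16 with an interval of -0.41 to 0.08. Cox5b, Cox7b, Cox7c, Cox6a1 and Cox6b1 had differences between -0.09 and 0.07.

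Cox6c, a small subunit, had 61.6, 72.2 and 46.3 FPKM in treated cells, against 28.1, 61.4 and 45.7 FPKM in untreated cells. As for Uqcrq, untreated replicate 1 was the lowest library. The difference of 0.45 had an interval of -0.24 to 1.14. Without untreated replicate 2, Cox6c and Uqcrq joined Coa7 at an unadjusted limma p under 0.05, as did 1.20% of all tested genes. The lowest limma adjusted p of a member was then 0.999956. Without treated replicate 1, Sdhd and Cox5b-ps, both lower in treated cells, joined Coa7 instead, beside 5.34% of all tested genes. Cox5b-ps, which GENCODE M21 lists as protein-coding under the name Gm11273, matched Cox5b at 99.2% over 390 bases. It was listed at 101, 81.4 and 66.7 FPKM in treated cells, against 90.1, 101 and 88.0 FPKM in untreated cells, and the split of reads between it and Cox5b is uncertain.

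Several complex IV subunits exist in a ubiquitous and a tissue-restricted form, and these cells listed the ubiquitous one. Cox4i1, Cox6a1, Cox6b1, Cox7a2, Cox7b and Cox8a averaged 212 to 389.7 FPKM over the 6 libraries. Cox4i2, Cox6a2, Cox6b2, Cox7a1, Cox7b2, Cox8b and Cox8c, known from lung, muscle or testis, stayed at or under 0.568 FPKM in every library and were not tested. Cox7a1 was the highest of these, at 0.449, 0.252 and 0.0663 FPKM in treated cells, against 0.568, 0.160 and 0.437 FPKM in untreated cells, and Cox8c was listed at 0 throughout. Cox7a2l, a relative of Cox7a2 that joins complexes III and IV into supercomplexes, averaged 65.9 ± 5.82 FPKM in treated cells and 64.4 ± 1.55 FPKM in untreated cells.

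Complex IV assembly factors all had lower means than its tested subunit entries. The factors ran from 2.12 FPKM for Coa7 to 33.1 FPKM for Coa8, and the tested subunit entries from 52.5 FPKM for Cox6c to 389.7 FPKM for Cox8a. Of the 15 factors, 12 averaged higher in treated cells and 3 lower, with a median log2 difference of 0.02, and 0 passed. 10 to 12 averaged higher under the other scalings, and 7 without treated replicate 2. Of the enzymes that make heme a, Cox10 averaged 2.96 ± 0.421 FPKM in treated cells and 3.22 ± 0.305 FPKM in untreated cells, and Cox15 15.3 ± 0.375 FPKM in treated cells and 16.1 ± 1.23 FPKM in untreated cells. Of the copper factors other than Cox17, Cox11 averaged 6.22 ± 1.05 FPKM in treated cells and 6.11 ± 0.979 FPKM in untreated cells, Cox19 8.05 ± 0.285 FPKM in treated cells and 8.03 ± 0.248 FPKM in untreated cells, and Coa6 17.0 ± 0.614 FPKM in treated cells and 16.8 ± 1.59 FPKM in untreated cells. These 5 overlapped between groups. Coa4 and Coa5, further small factors, averaged 2.78 ± 0.445 FPKM in treated cells and 2.68 ± 0.224 FPKM in untreated cells for Coa4 and 28.0 ± 3.62 FPKM in treated cells and 25.5 ± 1.07 FPKM in untreated cells for Coa5.

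Cox18, which inserts the COX2 tail into the membrane, had 2.16, 1.99 and 3.49 FPKM in treated cells, against 2.06, 1.49 and 1.67 FPKM in untreated cells. Treated replicate 3 was the high library, and treated replicate 2 stood below untreated replicate 1. The difference was 0.35, with an interval of -0.12 to 0.83. Cox14 and Coa3 bind newly made COX1 and had opposite signs. Cox14 averaged 15.9 ± 1.68 FPKM in treated cells and 13.6 ± 1.80 FPKM in untreated cells, and Coa3 6.25 ± 1.01 FPKM in treated cells and 7.63 ± 2.52 FPKM in untreated cells. For Coa3 the untreated replicates stood at 10.5, 6.14 and 6.20 FPKM, replicate 1 being high.

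Coa8 and Cox16 were the most abundant factors. Coa8 had 40.4, 29.6 and 29.8 FPKM in treated cells, against 35.2, 34.4 and 29.3 FPKM in untreated cells. Cox16, which works with COX2, had 21.2, 31.2 and 29.0 FPKM in treated cells, against 31.5, 34.3 and 16.8 FPKM in untreated cells. Neither was separated between groups. Cox16 lies wholly within the deposited span of Gm20498, whose transcript matched it exactly over 455 bases, so its value is uncertain where reads could be split. Gm20498 had 3.97, 11.0 and 1.93 FPKM in treated cells, against 2.86, 1.21 and 0.592 FPKM in untreated cells.

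**Figure D4:**
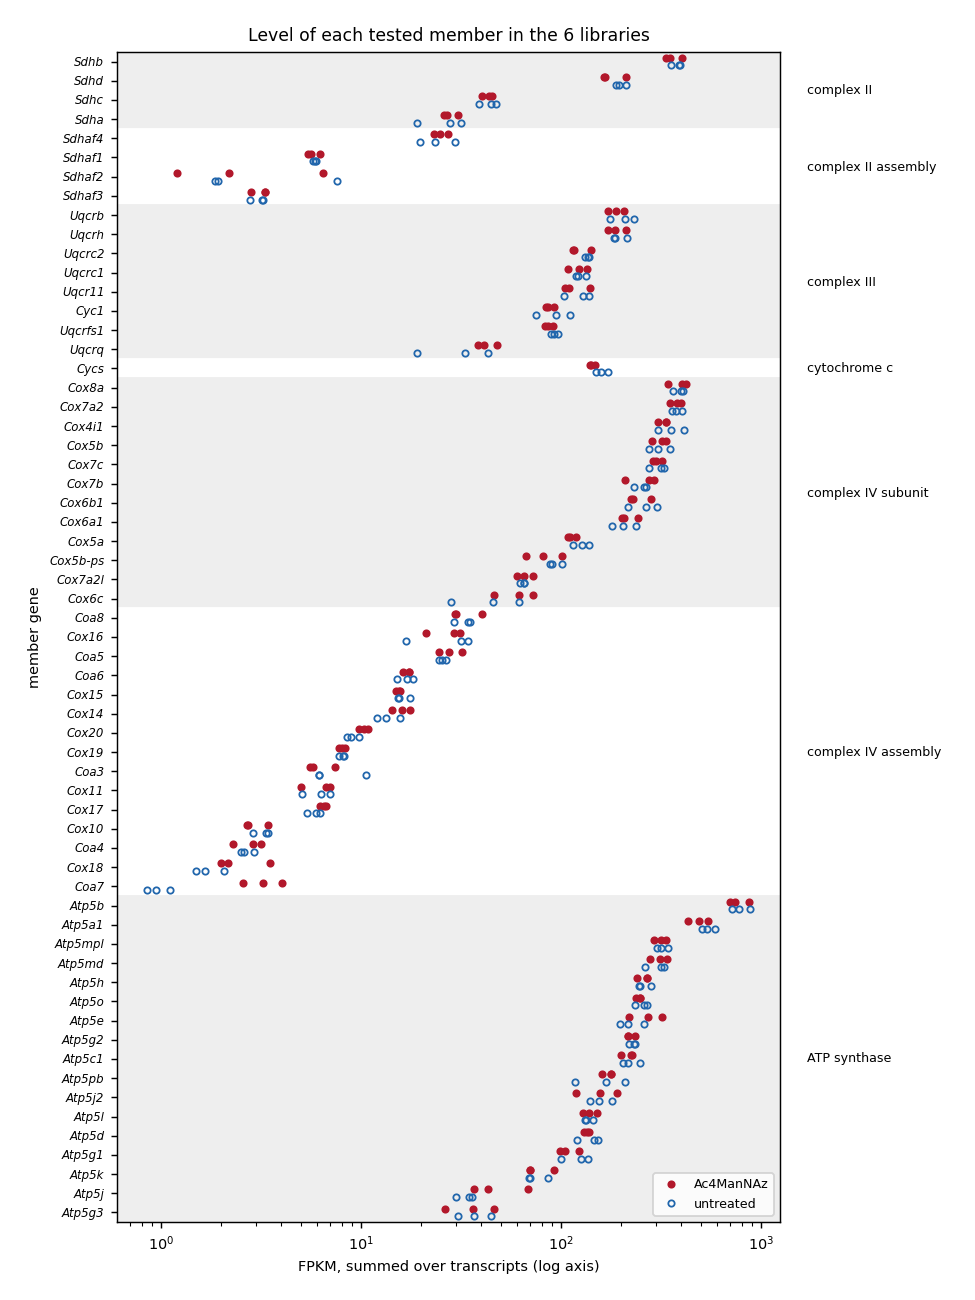
FPKM (log axis) of the 61 tested members in each library by role. Complex IV assembly factors, at means of 2.12 to 33.1 FPKM, lie below the complex IV subunits, at 52.5 to 389.7 FPKM, and the treated and untreated points overlap for 56 members.

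ATP synthase genes held the largest sum of the groups, and of the 17 tested 7 averaged higher and 10 lower (12 and 5 with the same summed FPKM). Atp5b, the catalytic beta subunit, had 869, 739.5 and 700.2 FPKM in treated cells, against 719, 879 and 773 FPKM in untreated cells. Atp5a1, the alpha subunit, had 542, 431 and 489 FPKM in treated cells, against 508, 587 and 537 FPKM in untreated cells. Both overlapped, with differences of -0.04 for Atp5b and -0.16 for Atp5a1. Of the rotor stalk genes, Atp5c1 had a difference of -0.04 and Atp5d of -0.05. Atp5e, also of the rotor stalk, had 319, 272 and 218 FPKM in treated cells, against 216, 198 and 259.9 FPKM in untreated cells, and its difference of 0.25 had an interval of -0.15 to 0.66.

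Atp5g1, Atp5g2 and Atp5g3 make the same mature subunit c of the rotor ring. Atp5g2 had 235, 217 and 217 FPKM in treated cells, against 235, 219 and 232 FPKM in untreated cells. Atp5g1 had 122, 99.0 and 104 FPKM in treated cells, against 100.3, 137 and 125 FPKM in untreated cells. Atp5g3 had 36.4, 46.1 and 26.2 FPKM in treated cells, against 44.6, 36.8 and 30.4 FPKM in untreated cells. The order Atp5g2, Atp5g1, Atp5g3 held in all 6 libraries as listed, and each gene overlapped between groups. Atp5g2 matched Gm10175 exactly over 645 bases and Atp5g1 matched Gm10039 at 99.8% over 411 bases, while no such copy of Atp5g3 was found, so the order may depend on how reads were split. Of the stalk and membrane genes other than Atp5j, Atp5pb, Atp5h, Atp5o, Atp5j2, Atp5k, Atp5l, Atp5md and Atp5mpl had differences between -0.05 and 0.09. A second Atp5o entry, whose span overlaps Itsn1, Donson and Cryzl1, was listed at 0 throughout.

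Summed over tested members, the levels of each complex differed little between groups. Complex II subunits summed to 614 ± 59.9 FPKM in treated cells and 646 ± 35.0 FPKM in untreated cells. Complex III subunits summed to 960.0 ± 92.4 FPKM in treated cells and 1000.4 ± 90.1 FPKM in untreated cells. Complex IV subunit entries summed to 2747 ± 216 FPKM in treated cells and 2793 ± 156 FPKM in untreated cells. In each case the difference between means was smaller than the SD of either group. Complex IV assembly factors summed to 185 ± 7.80 FPKM in treated cells and 178 ± 14.7 FPKM in untreated cells, and ATP synthase genes to 3965 ± 313 FPKM in treated cells and 4010.0 ± 182 FPKM in untreated cells, differences smaller than the SD of at least 1 group. In bulk RNA, fewer cells expressing a gene and less of its RNA per cell cannot be told apart. FPKM are relative to the fragments of the library, so the number of cells cannot be read from them.

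**Figure D5:**
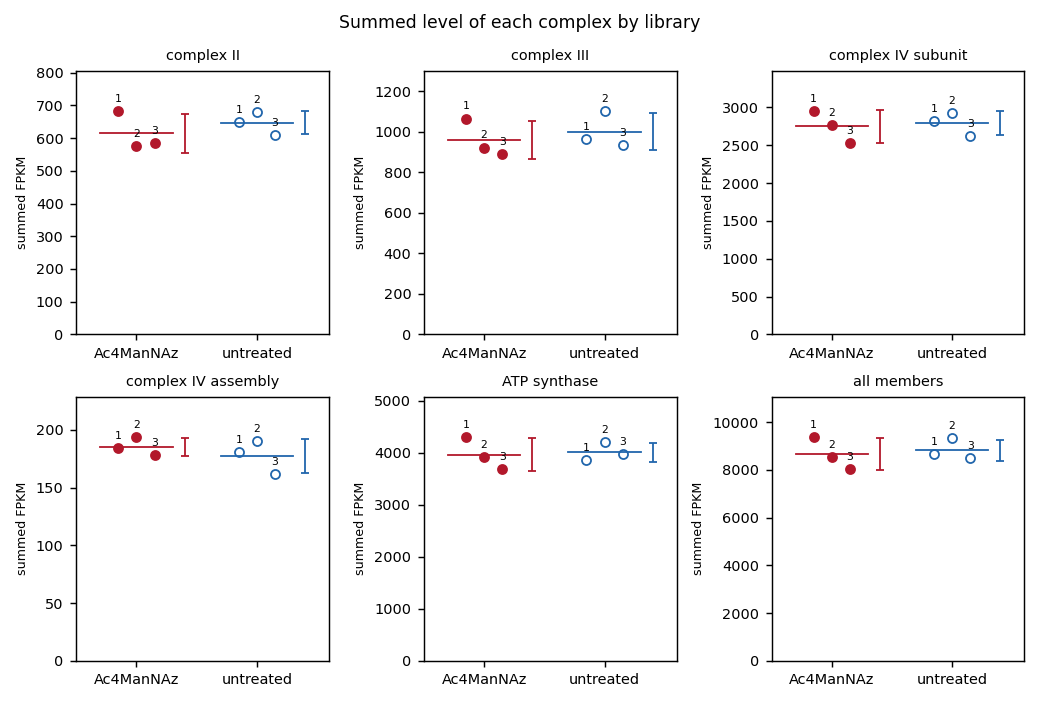
Summed FPKM of the tested members of each group by library, with group means as lines and SD bars (3 libraries in each group). The treated and untreated libraries overlap in every panel.

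Some libraries were high or low across many members. Treated replicate 1 held the highest value for 20 of the 61 and untreated replicate 2 for another 20, where over all tested genes these libraries held it for 14.4% and 16.8%. Treated replicate 3 held the lowest value for 19 of the 61 members and untreated replicate 3 for 14 of the 61, beside 12.3% and 27.3% of all tested genes. For untreated replicate 3 the members' share was below that of all tested genes. The members' median deviation from their own means was 0.08, 0.01 and -0.10 on the log2 scale in treated replicates 1 to 3 and -0.01, 0.09 and -0.06 in untreated replicates 1 to 3. Over all tested genes it was -0.00931, 0.0201 and -0.0156 in treated replicates 1 to 3. In untreated replicates 1 to 3 it was 0.0692, 0.00626 and -0.0696 over all tested genes, so untreated replicate 3 was low in both. As a share of all FPKM the members held 2.70%, 2.76% and 2.59% in treated and 2.55%, 2.73% and 2.68% in untreated libraries, which overlapped.

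Of the members' transcripts, 92 averaged 1 FPKM or more and 0 passed limma's test over 14846 transcripts, of which 9 did (0.0606%). An unadjusted p under 0.05 was reached by 2, Coa7-202 and Atp5o-203, where 2.54% of all transcripts tested reached it. Atp5o-203 had 0.546, 0 and 0 FPKM in treated cells, against 35.4, 3.18 and 1.67 FPKM in untreated cells, and the Atp5o gene sum overlapped between groups. Coa7-202 and Atp5o-203 each averaged under 1 FPKM in their lower group. Each entered the test, and so has a p, only through the group where it was higher. For 15 of the 92, or 16.3%, the highest library was over 5 times the lowest plus 0.1 FPKM, beside 18.8% of all transcripts tested. Cox7a2l-202 had 39.1, 34.1 and 0.0875 FPKM in treated cells, against 35.3, 36.5 and 32.4 FPKM in untreated cells, and Cox7a2l-201 had 33.0, 30.9 and 60.4 FPKM in treated cells, against 29.7, 29.2 and 30.3 FPKM in untreated cells. Treated replicate 3 was low in one and high in the other, and the gene sum stayed between 60.5 and 72.1 FPKM. Cox5b-201 had 3.08, 2.41 and 139 FPKM in treated cells, against 4.98, 3.74 and 3.19 FPKM in untreated cells, while Cox5b as a gene had 335, 284 and 321 FPKM in treated cells, against 306, 352 and 276 FPKM in untreated cells. This transcript criterion and the examples were chosen after the values were seen.

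Genes that work with the members, none of them a member, were compared from lists. Of 6 mitochondrially encoded subunits of complexes III, IV and V, 6 averaged higher in treated cells, beside 49.6% of all tested genes, and 0 passed. The smallest log2 difference was 0.03, for mt-Co3, and all but mt-Cytb overlapped between groups. Their sums overlapped too, at 4886, 4779 and 4434 FPKM in treated cells, against 5976, 3755 and 3501 FPKM in untreated cells. mt-Cytb, the catalytic core of complex III, had 181, 208 and 166 FPKM in treated cells, against 163, 122 and 121 FPKM in untreated cells, which did not overlap. mt-Co1, the core of complex IV, had 2364, 2289 and 2289.8 FPKM in treated cells, against 3098, 1700.3 and 1707 FPKM in untreated cells, which did. Of 25 further assembly factors, 11 averaged higher and 14 lower, and 0 passed. The list was drawn for complexes II to V, but Timmdc1, among those that averaged lower, serves complex I. Uqcc1, which assists cytochrome b synthesis, had 13.8, 12.1 and 8.58 FPKM in treated cells, against 8.86, 7.32 and 6.43 FPKM in untreated cells, where treated replicate 3 stood below untreated replicate 1. Lyrm7, which helps insert the Rieske protein, had all treated values higher, and Surf1, a complex IV factor, all lower. The other factors of this list overlapped between groups. Over all tested genes, the groups did not overlap in 5.8%. Of 11 transcription regulators of respiratory genes, 5 averaged higher and 6 lower, and 0 passed. Nrf1, which binds the palindrome searched in the promoters, had 18.9, 14.8 and 17.6 FPKM in treated cells, against 19.7, 21.4 and 21.3 FPKM in untreated cells, with all treated values lower, a difference of -0.27 and an interval of -0.56 to 0.01. The other regulators overlapped between groups. Of 4 carriers that supply phosphate or exchange ADP and ATP, 3 were tested, of which 1 averaged higher and 2 lower, and 0 passed.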

How the data were processed

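Total RNA of 6 libraries was depleted of rRNA and made strand-specific, per the labels. The authors deposited FPKM per transcript and library. How reads were aligned, quantified and assigned to strands, and on which build and annotation, is not given in the sources used here. Transcripts were summed per gene identifier and taken to log2(FPKM + 1). Genes averaging 1 FPKM or more entered limma 3.58.1 under R 4.3.3 (lmFit, eBayes with trend), treated minus untreated, two-sided, with Benjamini-Hochberg adjustment and a threshold of 0.05. Named genes were, per role, the 2 highest and the 2 of smallest p, those whose groups did not overlap, those whose highest library was over 5 times the lowest, and paralogs. Other genes were named after their values were seen. Members and lists were chosen with earlier results of these data known.

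Fragments were implied from the step between low FPKM values multiplied by GENCODE M21 lengths. Of low values, 5.96% to 15.7% lay within 2% of 1 step and 0.392% to 1.34% midway to it. The step was set at the commonest of these same values, so the share at 1 step cannot check it. Shares were 4.47% to 8.14% at 2 steps and 2.94% to 4.47% at 3 steps. Midway between 1 and 2 steps they were 0.721% to 1.54%, and midway between 2 and 3 steps 0.824% to 1.69%. Tested members had at least 65.5 implied fragments per library. The deposited files hold no counts, so no counting interval is given. Copies were searched with BLAST 2.17.0 against GENCODE M21 transcripts. Tables used Python 3.11.15, pandas 2.3.3 and numpy 2.4.6, and figures matplotlib 3.10.9.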

Additional observations from a re-analysis of the deposited data

How the results depend on the processing

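The count of members called was 0 under every alternative run: a pseudocount of 0.1, no filter, a mean of at least 5 FPKM, the 3 other scalings, eBayes without trend, the most abundant transcript, the replicate block and each library left out. Member transcripts called numbered 0 under the same alternatives, other than the most abundant transcript. Genes called in the whole table numbered 4 with the most abundant transcript and 0 to 1 with single libraries left out, the 1 being without Ac4ManNAz replicate 2. Members at an unadjusted p under 0.05 numbered 0 with a mean of at least 5 FPKM, where Coa7 is not tested, beside 1.81% of all genes tested there. With the same summed FPKM, quantile normalization and the replicate block they numbered 2 of 61, Atp5j being added, beside 1.82%, 1.89% and 2.19% of all tested genes. With single libraries left out they numbered 1 to 3 of 61, beside 1.20% to 5.34% of all tested genes. Coa7 kept its direction wherever it was tested, with log2 differences of 0.98 to 1.64 and limma adjusted p of 0.461 to 1. Same-numbered libraries deviated together with correlations of 0.06, 0.02 and 0.26, and not every pair was over 0.1, so the numbers were not taken to pair the libraries. Treated replicates 1 and 3 correlated best with their own number and treated replicate 2 with untreated replicate 1, a hint from the data and not from the design.

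Signs of small differences turned with the scaling. With the same summed FPKM, which moved the median of all genes to 0.04, log2 differences were 0.00795 for Atp5b, 0.0375 for Cox7a2, 0.0438 for Cox8a, 0.00945 for Atp5g2, 0.00512 for Uqcrh, and 40 members averaged higher. With quantile normalization they were 0.0164 for Sdhb, 0.0665 for Atp5b, 0.0581 for Cox7a2, 0.0697 for Cox8a, 0.0108 for Atp5g2, and 37 members averaged higher. With the same median the difference was -0.00168 for Coa8. With single libraries left out, ranges that crossed 0 were -0.0376 to 0.0865 for Cox7a2l, -0.647 to 0.375 for Sdhaf2, -0.0795 to 0.161 for Cox7b, -0.142 to 0.0756 for Coa8, -0.0194 to 0.173 for Cox6a1, -0.286 to 0.208 for Cox16, -0.246 to 0.150 for Atp5g3, -0.130 to 0.0392 for Atp5b, -0.0490 to 0.0399 for Cox7a2, -0.0634 to 0.0845 for Cox8a, -0.124 to 0.0289 for Uqcrh, -0.216 to 0.0231 for Cox6b1, -0.0950 to 0.255 for Sdha. The cause was not tested.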
